A study of Mus musculus with 34 samples.

Results

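The enzymes described here break down the branched-chain amino acids leucine, isoleucine and valine. They are the products of 9 genes, Bcat2, Bckdha, Bckdhb, Dbt, Bckdk, Ivd, Acadsb, Mccc1 and Hibadh, of 12394 genes with a single symbol on the array. All probe sets annotated to these symbols were taken, 11 of 22690: Ivd and Hibadh have 2 probe sets each and the other 7 genes have 1. The genes were chosen from the measured differences between mutant and wild-type arrays in these same data, so those differences are given as a description, without p-values. Comparisons among wild-type arrays played no part in the choice as such, and there the genes were tested; the wild-type arrays themselves are the ones the mutants were set against.

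The study measured transcripts with Affymetrix arrays in mice that lack or overexpress the muscle form of glycogen synthase, the enzyme that builds glycogen. Knockout (KO) mice of 3 months gave 4 anterior tibialis, 3 medial gastrocnemius and 4 liver arrays, set against 4, 5 and 4 arrays of wild-type (WT) mice of that age. GSL30 mice of 8 months, labelled as overexpressing muscle glycogen synthase, gave 5 medial gastrocnemius arrays, set against 5 of WT mice of 8 months. No drug or diet is named for any group. The strain, C57BL6/129SV, stands only in the labels of the tibialis arrays; the labels give neither the promoter of the GSL30 transgene nor whether each array came from its own animal.

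Branched-chain amino acids are broken down in mitochondria, and skeletal muscle is a main site of the first step, the removal of the amino group by the transaminase Bcat2. The branched-chain ketoacid dehydrogenase complex then carries out the step that commits the carbon to breakdown; Bckdha and Bckdhb are the subunits of its E1 component, Dbt is its E2 core, and the kinase Bckdk switches the complex off by phosphorylating Bckdha. Past the complex the paths divide: Ivd and Mccc1 serve leucine, Acadsb mainly isoleucine, and Hibadh valine.

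The 3 probe sets lowest in KO tibialis relative to WT were those of Acadsb and Bckdhb and 1449001_at of Ivd. By 1418238_at Ivd stood at 78% of WT, above Dbt at 66.6% and Bckdk at 70.9%. The promoters of Acadsb, Bckdhb and Ivd are shown with that of Bcat2, whose pattern differed from theirs. They are RefSeq sequences of GRCm38.p6, from 250 bases before to 50 bases after the annotated start; where a gene has several starts, the one listed first is shown. Capitals mark a CCAAT box, CCAAT or its reverse complement ATTGG.
Acadsb, chr7:131410351-131410650, plus strand: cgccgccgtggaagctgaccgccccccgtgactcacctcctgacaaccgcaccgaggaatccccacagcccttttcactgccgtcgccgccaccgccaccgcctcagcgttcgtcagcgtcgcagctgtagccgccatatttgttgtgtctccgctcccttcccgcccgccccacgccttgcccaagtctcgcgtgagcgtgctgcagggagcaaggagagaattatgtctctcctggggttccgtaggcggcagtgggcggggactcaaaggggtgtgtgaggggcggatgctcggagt
Bckdhb, chr9:83924887-83925186, plus strand: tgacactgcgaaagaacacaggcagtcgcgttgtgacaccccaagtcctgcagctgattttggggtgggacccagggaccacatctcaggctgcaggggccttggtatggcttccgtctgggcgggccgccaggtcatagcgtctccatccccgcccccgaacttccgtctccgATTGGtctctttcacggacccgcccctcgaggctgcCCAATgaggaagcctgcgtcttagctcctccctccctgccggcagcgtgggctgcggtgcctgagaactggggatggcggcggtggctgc
Ivd, chr2:118861744-118862043, plus strand: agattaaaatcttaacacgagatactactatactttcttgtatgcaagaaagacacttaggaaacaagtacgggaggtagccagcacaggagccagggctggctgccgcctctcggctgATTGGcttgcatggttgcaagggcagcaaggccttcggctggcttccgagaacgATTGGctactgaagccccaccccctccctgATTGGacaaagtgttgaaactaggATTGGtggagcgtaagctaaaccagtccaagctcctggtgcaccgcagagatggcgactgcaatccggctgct
Bcat2, chr7:45569903-45570202, plus strand: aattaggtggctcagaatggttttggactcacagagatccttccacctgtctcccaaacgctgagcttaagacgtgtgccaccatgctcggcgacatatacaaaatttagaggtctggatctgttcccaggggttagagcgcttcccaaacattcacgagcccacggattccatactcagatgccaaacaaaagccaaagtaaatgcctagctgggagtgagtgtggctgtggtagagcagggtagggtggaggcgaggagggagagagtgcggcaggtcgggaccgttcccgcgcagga
Both strands of every promoter were searched for CCAAT, for the E-box CACGTG and for TNAAGGTCA, a form of the element bound by estrogen-related receptors. A promoter was held for 8 of the 9 genes, all but Dbt. CCAAT was found in 5 of these 8 genes (Bckdhb, Bckdk, Ivd, Mccc1 and Hibadh) and in 37.4% of all 32851 mouse promoters. It stands at positions 175 and 211 of the Bckdhb window and at 4 places in that of Ivd, and in neither the Acadsb nor the Bcat2 window. CACGTG was in 0 of the 8 genes and 7.15% of all promoters, and TNAAGGTCA in 0 of the 8 and 1.28%. None of the 3 motifs contains another, and a match is a string of bases, not a measured binding site.

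The arrays matched their labels at Gys1, the gene for muscle glycogen synthase, whose probe set 1416737_at averaged 50 ± 18.9 in KO and 9271 ± 772 in WT tibialis (SD, n = 4 each), and 96.7 ± 59.3 in KO (n = 3) and 5033 ± 948 in WT gastrocnemius (n = 5). It averaged 9115 ± 935 in GSL30 and 6285 ± 553 in WT gastrocnemius of 8 months (n = 5 each); in liver it was too dim to be tested. By 1450196_s_at, Gys1 averaged 23.4 ± 10.2 in KO and 2405 ± 1063 in WT tibialis. In gastrocnemius of 3 months this set averaged 64.5 ± 83.2 in KO and 2508 ± 465 in WT. At 8 months it averaged 6619 ± 1488 in GSL30 and 2281 ± 1242 in WT, short of the threshold in limma (adjusted p = 0.0637). There WT replicate 5 read 289.4, against 2036 to 3332 in the other WT arrays. Where the labels name gastrocnemius of 3 months, 12 transcripts of hepatocytes were also present, at a median of 17.9, 6.29 and 3.85% of their WT liver level in the KO arrays, against 32.5, 64.4, 10.1, 50.4 and 4.17% in the WT arrays. They lay between 0.297 and 0.637% in tibialis, and at 0.326 to 0.925% in GSL30 against 0.905 to 2.41% in WT gastrocnemius of 8 months. The array of WT gastrocnemius replicate 2 stood apart further: its summed level of 10 skeletal muscle transcripts was 1903987, against 399507 to 565922 in the other 4 arrays of its group. Results that use the 3-month gastrocnemius arrays are therefore also given without the 4 arrays highest in liver transcripts (KO replicate 1 and WT replicates 1, 2 and 4). Only KO replicates 2 and 3 and WT replicates 3 and 5 then remain. These still held liver transcripts at 6.29, 3.85, 10.1 and 4.17%.

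Values are probe set intensities on a linear scale, on which every array had been brought to a trimmed mean of about 1000. Group levels are means ± SD, and differences are log2 differences of log2(value + 50), with the standard error (SE) from limma. A probe set passed when its limma p, with Benjamini-Hochberg adjustment over 13576 probe sets, was under 0.05. All 11 probe sets passed the filter on dim signals in every comparison. The WT tibialis, WT gastrocnemius and WT liver arrays each serve in more than 1 comparison, so these are not independent of each other. The array titles carry a separate code for each tissue and age, whose meaning is not given. Differences between WT tissues or ages therefore cannot be told apart from differences between these sets of arrays.

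**Figure D1:**
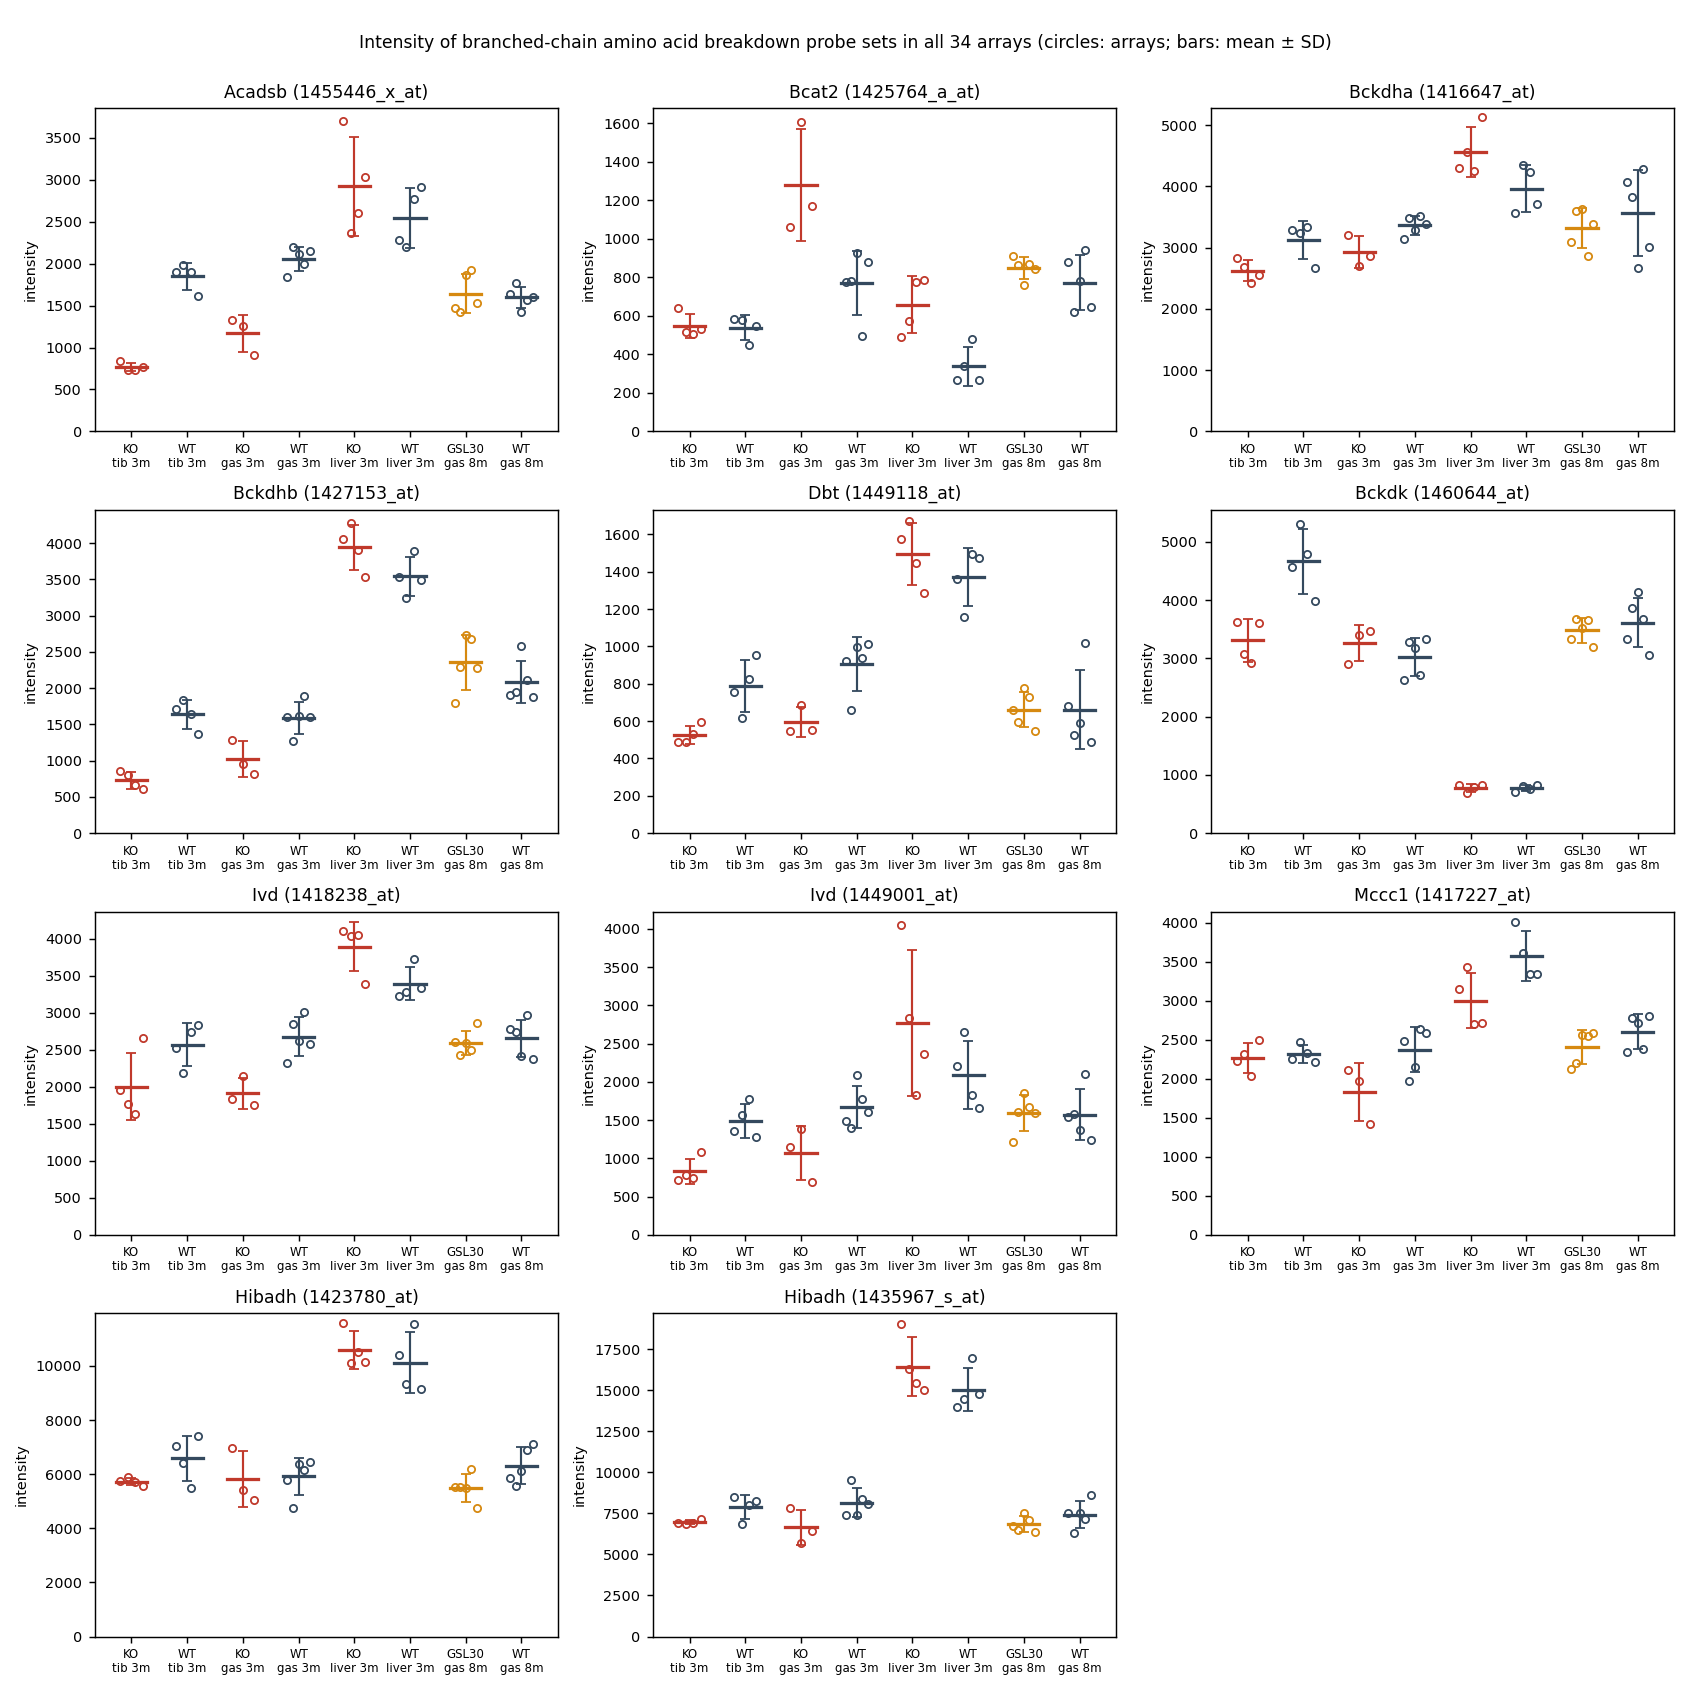
Each panel plots the intensity (linear scale, starting at 0) of 1 probe set in all 34 arrays by group; circles are arrays and bars the mean ± SD. Acadsb and Bckdhb are low in every KO tibialis array, Bckdk is low in every liver array, and Bcat2 is high in the KO gastrocnemius and KO liver arrays relative to WT.

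In tibialis, Acadsb and Bckdhb stood at 41.5 and 44.6% of their WT level in KO mice, while Bcat2 and Mccc1 were near it. The differences of 10 of the 11 probe sets were below 0, with a median of -0.37, against a median of 0.04 over all 13576 probe sets. Of the 11, 3 were past the threshold, all lower in KO (Acadsb, Bckdhb and 1 of the 2 Ivd probe sets), against 1.4% of all probe sets in either direction. In 5 of the 11 every KO array lay below every WT array, where 10.1% of all probe sets had groups that did not overlap. Since these values chose the genes, nothing is read from either count.

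Bcat2 (1425764_a_at), the transaminase, read 642, 519, 506 and 533 in the KO tibialis arrays, against 586, 578, 447 and 549.7 in the WT arrays. The groups overlapped and the log2 difference was 0.03 (SE 0.124). Of the dehydrogenase complex, Bckdhb (1427153_at) read 855, 796, 667 and 604 in KO tibialis, against 1709.9, 1835, 1643 and 1367 in WT tibialis. Every KO array was well below the lowest WT array, and the mean was 44.6% of the WT mean (log2 difference -1.12, SE 0.142).

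Dbt (1449118_at), the E2 core, read 486, 490.4, 529 and 594 in KO tibialis, against 754, 619, 827 and 952 in WT tibialis. The highest KO array was just below the lowest WT array, and the log2 difference was -0.53 (SE 0.140). Bckdha (1416647_at), the partner of Bckdhb in E1, averaged 2622 ± 172 in KO and 3129 ± 308 in WT tibialis (SD, n = 4 each), a log2 difference of -0.25 (SE 0.112) with overlapping arrays. The E1 subunits thus differed in how far they lay from WT, -0.25 for Bckdha beside -1.12 for Bckdhb. The kinase Bckdk (1460644_at) read 3631, 3071, 2914 and 3613 in KO tibialis, against 4563, 5314, 4799 and 3983 in WT tibialis. No KO array reached the lowest WT array, and the log2 difference was -0.49 (SE 0.129).

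Past the complex, the acyl-CoA dehydrogenase Acadsb (1455446_x_at) read 841, 733, 732 and 764 in KO tibialis, against 1899, 1981, 1901 and 1617 in WT tibialis. The arrays of each group lay close together and far from the other group; the KO mean was 41.5% of the WT mean (log2 difference -1.21, SE 0.108). Ivd, the dehydrogenase of the leucine path, read 719.6, 778, 738 and 1077 in KO tibialis by 1449001_at, against 1351, 1564, 1771 and 1282 in WT tibialis. KO replicate 4 stood above the other 3 KO arrays yet below all WT arrays, and the log2 difference was -0.82 (SE 0.157).

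The other Ivd probe set (1418238_at) gave a smaller difference, -0.37 (SE 0.162), with 1952, 1769.7, 1637 and 2659.6 in KO against 2524, 2183, 2737 and 2835 in WT tibialis; here KO replicate 4 lay within the WT range. Mccc1 (1417227_at), the biotin-bearing subunit of methylcrotonyl-CoA carboxylase, averaged 2272 ± 190.3 in KO and 2323 ± 114 in WT (SD, n = 4 each), a log2 difference of -0.03 (SE 0.104). Hibadh, of the valine path, differed by -0.19 (SE 0.116) and -0.18 (SE 0.105) by its 2 probe sets, with overlapping arrays. The breakdown genes were thus uneven in KO tibialis, with the lowest relative levels in Acadsb and Bckdhb.

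**Figure D2:**
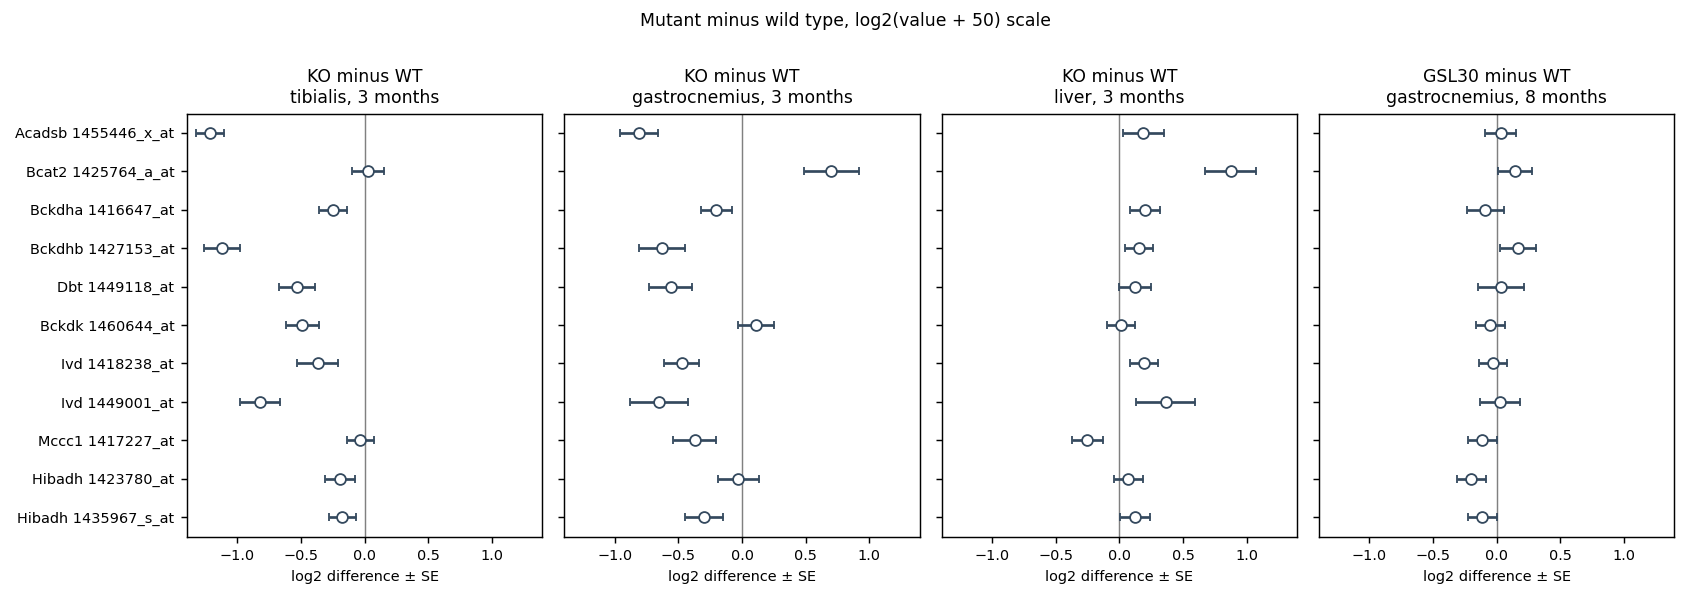
The log2 difference, mutant minus WT, of each probe set on the log2(value + 50) scale, with its SE as a bar, in 4 comparisons with 1 common axis. Acadsb and Bckdhb lie at -1.21 and -1.12 in KO tibialis, Bcat2 at 0.70 and 0.87 in KO gastrocnemius and KO liver, and all points for GSL30 within -0.20 and 0.17.

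In KO gastrocnemius most of the enzymes lay below WT, and Bcat2 stood above it. Differences were below 0 for 9 of the 11 probe sets, with a median of -0.37, against 0.05 over all probe sets. None of the 11 was past the threshold, where 0.147% of all probe sets were; in 3 all KO arrays lay below, and in 1 above, all WT arrays, where 9.98% of all probe sets did not overlap. Acadsb read 1333, 1256 and 915 in KO gastrocnemius, against 1845, 2201, 2116, 1990.5 and 2147 in WT gastrocnemius. The groups did not overlap, and the log2 difference was -0.81 (SE 0.151), or -0.96 without the 4 arrays highest in liver transcripts.

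Bckdhb read 1289.9, 958 and 818 in KO gastrocnemius, against 1596, 1266, 1617, 1885 and 1598 in WT gastrocnemius. KO replicate 1 lay just above the lowest WT array, replicate 2; the difference was -0.63 (SE 0.180), and -0.83 without the 4 arrays. Dbt averaged 594 ± 79.4 in KO (n = 3) and 905 ± 143 in WT gastrocnemius (n = 5), a difference of -0.56 (SE 0.168); again only WT replicate 2 overlapped the KO arrays, and without the 4 arrays the difference was -0.66. Both Ivd probe sets were lower in every KO array than in any WT array, by -0.47 (SE 0.137) for 1418238_at and -0.65 (SE 0.226) for 1449001_at; without the 4 arrays these were -0.41 and -0.87.

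Bcat2 read 1060.3, 1609.9 and 1169 in KO gastrocnemius, against 776, 782, 925, 497 and 878 in WT gastrocnemius. All KO arrays were above all WT arrays, with a mean of 166% of WT and a log2 difference of 0.70 (SE 0.218), or 0.58 without the 4 arrays. Bckdk differed by 0.11 (SE 0.139), Bckdha by -0.20 (SE 0.119) and Mccc1 by -0.37 (SE 0.171), all with overlapping arrays; without the 4 arrays they differed by 0.08, -0.26 and -0.49. Hibadh differed by -0.03 (SE 0.161) by 1423780_at and -0.30 (SE 0.151) by 1435967_s_at. Without the 4 arrays the first of these was -0.295, far from its value with all arrays, and the second -0.35. Without WT replicate 2 alone, the differences of Acadsb, Bckdhb and Bcat2 were -0.78, -0.71 and 0.71.

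**Figure D3:**
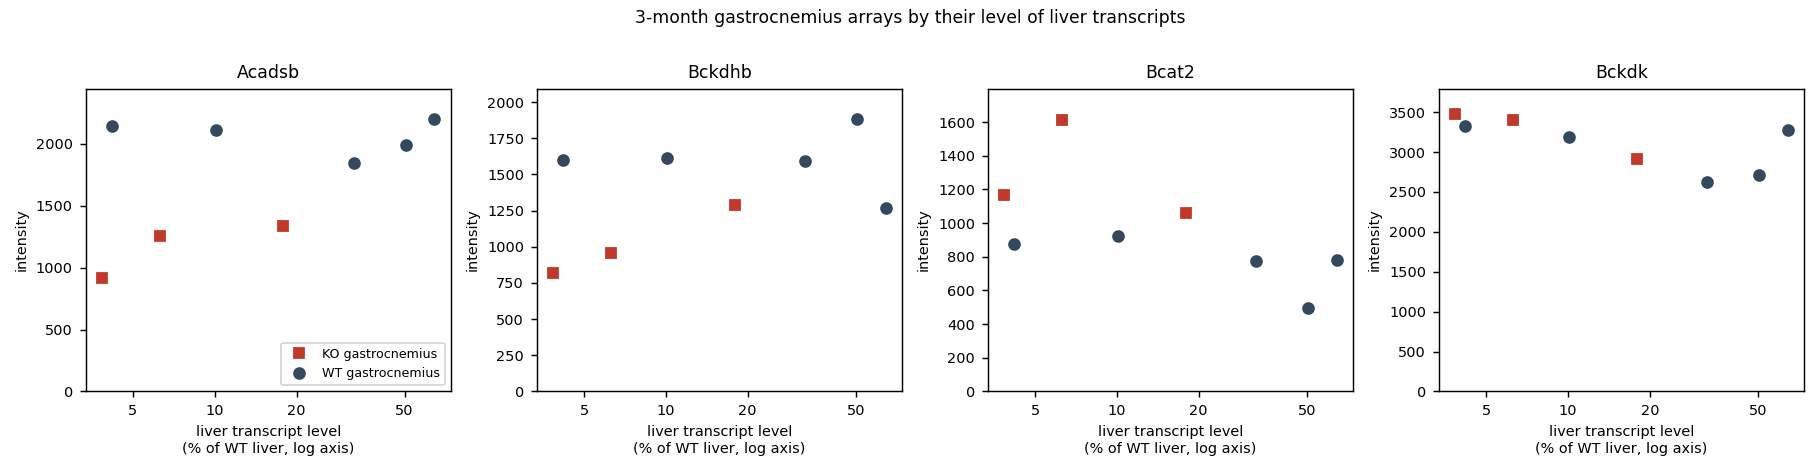
Intensity (linear axis from 0) of Acadsb, Bckdhb, Bcat2 and Bckdk in the 8 gastrocnemius arrays of 3 months against the median level of 12 hepatocyte transcripts in percent of WT liver (log axis). The Acadsb groups do not overlap, and the WT arrays lowest in liver transcripts, 4.17 and 10.1%, read as high in Acadsb as the others.

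Transcripts of other cell types were measured beside these differences, and their part in them was not tested. In gastrocnemius the summed level of 10 slow fibre transcripts ran between 87615 and 112652 in KO and between 41695 and 65491 in WT; in tibialis it ran between 46335 and 55877 in KO and between 21732 and 29104 in WT. In tibialis the sum rests largely on Myl3: 11 of 19 slow fibre probe sets were higher and 8 lower in KO, with a median of 0.12, and Myh7, the slow myosin heavy chain, averaged 762 ± 539.8 in KO and 780.1 ± 256 in WT (SD, n = 4 each). Of these 19, 1 in gastrocnemius and 3 in tibialis passed, all higher in KO and all of them Myl3, the slow myosin light chain. Over all probe sets 0.147 and 1.4% passed. In gastrocnemius 18 of the 19 were higher and 1 lower in KO, with a median of 0.83. For 13 of them every KO array lay above every WT array, where 9.98% of all probe sets did not overlap. Summed levels of 8 endothelial transcripts ran between 15571 and 17225 in KO and between 9401 and 12770 in WT gastrocnemius, and between 17625 and 22134 in KO and between 13276 and 15608 in WT tibialis. Those of 8 adipocyte transcripts ran between 100628 and 108491 in KO and between 75379 and 124979 in WT gastrocnemius, and between 79975 and 88584 in KO and between 77396 and 87974 in WT tibialis. Those of 8 macrophage transcripts overlapped between KO and WT in both muscles. None of these marker genes read 0 in any array. In bulk tissue, fewer cells of a type and less RNA per cell cannot be told apart.

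In KO liver 10 of the 11 probe sets were above WT, mostly by little, with a median difference of 0.15 against 0.02 over all probe sets. None of the 11 was past the threshold, where 0.00737% of all probe sets were, and 1, Bcat2, had groups that did not overlap, where 5.17% did not. Bcat2 read 491, 575, 775 and 788 in KO liver, against 265, 338, 479.6 and 269 in WT liver. The lowest KO array was just above the highest WT array; the mean was 194% of WT, a log2 difference of 0.87 (SE 0.202).

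Acadsb averaged 2924 ± 588 in KO and 2542 ± 357 in WT liver, and Bckdhb 3942 ± 313 in KO and 3541 ± 269 in WT liver (SD, n = 4 each). Their differences, 0.19 (SE 0.161) and 0.15 (SE 0.110), lay on the other side of 0 from those in KO tibialis. The remaining differences ran between -0.25 (SE 0.122), for Mccc1, and 0.36 (SE 0.234), for Ivd by 1449001_at, with overlapping arrays throughout. Gys1, at 37.8 ± 21.2 in KO and 56.8 ± 13.9 in WT liver (SD, n = 4 each), was near the floor of the arrays in both groups.

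In GSL30 gastrocnemius none of the 11 probe sets was past the threshold, where 4.31% of all probe sets were, and all 11 had overlapping arrays, where 7.38% of all probe sets did not overlap. The differences ran between -0.20 (SE 0.116), for Hibadh by 1423780_at, and 0.17 (SE 0.141), for Bckdhb, with a median of -0.03 against 0.03 over all probe sets. Without the WT arrays highest in liver transcripts (replicates 2 and 5) they ran between -0.20 and 0.09. Acadsb read 1471, 1426, 1864, 1929 and 1526 in GSL30 gastrocnemius, against 1637, 1773, 1424, 1563 and 1597 in WT gastrocnemius of 8 months. The highest and the next highest of these arrays were both GSL30 arrays, the lowest was a WT array, and the log2 difference was 0.03 (SE 0.122). Bcat2 averaged 851 ± 57.0 in GSL30 and 773 ± 143 in WT (SD, n = 5 each), a difference of 0.14 (SE 0.133), and Bckdk 3479 ± 209 in GSL30 and 3615 ± 427 in WT, a difference of -0.05 (SE 0.114). Of 19 slow fibre probe sets, 18 were lower and 1 higher in the same GSL30 arrays, and 14 passed, all lower. Lower there were also 10 of 11 endothelial (4 passed), 12 of 12 adipocyte (3 passed) and 11 of 11 hepatocyte probe sets (5 passed). Of 12 macrophage probe sets 9 were lower (1 passed), and of 12 skeletal muscle ones 10 were higher (0 passed). The part of these transcripts in the values of the enzymes was not tested.

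Among WT arrays the enzymes divided by tissue: at 3 months the kinase and the transaminase were lower in liver than in tibialis, and the genes of the complex and of the later steps were higher. All 11 probe sets passed, 9 higher and 2 lower in liver, where 69.4% of all probe sets passed. The median difference of the 11 was 0.46, against -0.18 over all probe sets. Bckdk read 707, 817, 752 and 819 in WT liver, against 4563, 5314, 4799 and 3983 in WT tibialis. No liver array came near a muscle array, and Bckdk fell by 2.51 on the log2 scale (SE 0.123, adjusted p = 2.4e-08), to 16.6% of its tibialis level. Bcat2 read 265, 338, 479.6 and 269 in WT liver and 586, 578, 447 and 549.7 in WT tibialis. WT liver replicate 3 lay above the lowest tibialis array, and the difference was -0.63 (SE 0.178, adjusted p = 0.00906).

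Bckdhb was the member with the greatest excess in liver, 3541 ± 269 in WT liver and 1639 ± 198 in WT tibialis (SD, n = 4 each), a log2 difference of 1.09 (SE 0.125, adjusted p = 2e-05) with no overlap. Dbt averaged 1371 ± 155 in WT liver and 788 ± 139 in WT tibialis, 0.77 higher (SE 0.149, adjusted p = 0.00093). Mccc1 was 0.61 higher (SE 0.111, adjusted p = 0.000611) and Acadsb 0.44 higher (SE 0.133, adjusted p = 0.0126). Hibadh was higher in liver by 0.62 (SE 0.135) and 0.92 (SE 0.120) by its 2 probe sets, and Ivd by 0.40 (SE 0.121, adjusted p = 0.0132) by 1418238_at. The calls with the highest adjusted p were Bckdha, at 0.34 (SE 0.124, adjusted p = 0.0331), and Ivd by 1449001_at, at 0.46 (SE 0.169, adjusted p = 0.0325). Bckdha no longer passed without WT liver replicate 2 (adjusted p = 0.0893) or 3 (0.0789) or without WT tibialis replicate 4 (0.0765), nor with quantile normalization (0.054) or no filter on dim probe sets (0.0538). Ivd by 1449001_at no longer passed without WT liver replicate 1 (adjusted p = 0.0767) or 2 (0.0922) or without WT tibialis replicate 1 (0.0776) or 4 (0.0761), nor with no filter (0.0536) or all 34 arrays in 1 fit (0.0546). Of 15 alternatives, Bckdha passed in 10 and Ivd by 1449001_at in 9.

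**Figure D4:**
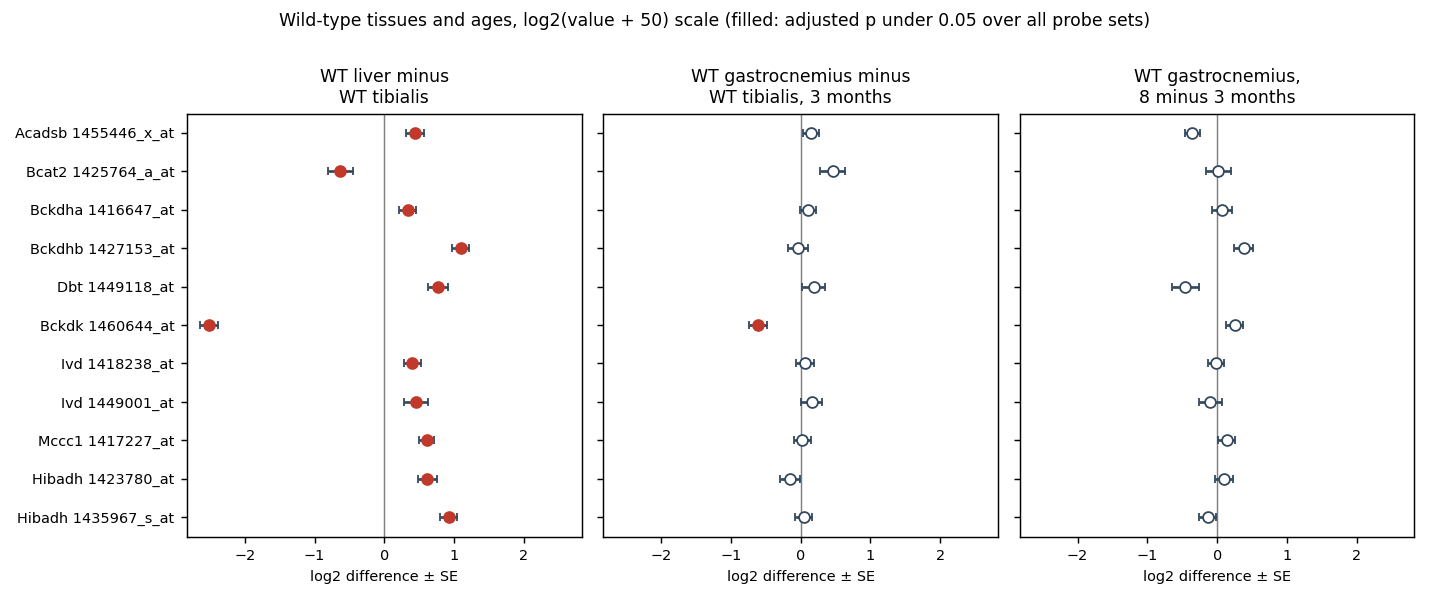
The log2 difference of each probe set on the log2(value + 50) scale, with its SE as a bar, in 3 comparisons among WT arrays; filled points passed at an adjusted p under 0.05. All 11 points are filled for liver minus tibialis, with Bckdk at -2.51 and Bckdhb at 1.09; Bckdk at -0.62 is the filled point for gastrocnemius minus tibialis, and none is filled for 8 minus 3 months.

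Between WT muscles of 3 months, Bckdk was lower in gastrocnemius and no other member passed. It was the 1 call among 11 probe sets, where 27% of all probe sets passed. Bckdk read 2628, 3276, 3183, 2718 and 3327 in WT gastrocnemius, against 4563, 5314, 4799 and 3983 in WT tibialis. The groups did not overlap, and the difference was -0.62 (SE 0.132, adjusted p = 0.00766). Without the gastrocnemius arrays highest in liver transcripts (replicates 1, 2 and 4), it was -0.51 (adjusted p = 0.0729), with 2 gastrocnemius arrays left. Bcat2 averaged 771 ± 166 in WT gastrocnemius (n = 5) and 539.9 ± 64.1 in WT tibialis (n = 4), a difference of 0.46 (SE 0.177, adjusted p = 0.0801); without those 3 arrays it was 0.70 (adjusted p = 0.0285), and without replicate 4 alone 0.60 (adjusted p = 0.0154). The other 9 differences ran between -0.16, for Hibadh by 1423780_at, and 0.19, for Dbt.

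In WT gastrocnemius of 8 months against 3 months none of the 11 probe sets passed in limma, where 6.19% of all probe sets did; 3 had an unadjusted p under 0.05. Acadsb read 1637, 1773, 1424, 1563 and 1597 at 8 months and 1845, 2201, 2116, 1990.5 and 2147 at 3 months. All 8-month arrays were below all 3-month arrays, with a difference of -0.36 (SE 0.106, adjusted p = 0.0732). Bckdhb differed by 0.38 (SE 0.135, adjusted p = 0.121) and Dbt by -0.46 (SE 0.192, adjusted p = 0.186). Liver transcripts were at 0.905 to 2.41% in the 8-month arrays and at 4.17 to 64.4% in the 3-month arrays. Without the arrays highest in them (replicates 2 and 5 of 8 months and 1, 2 and 4 of 3 months), the difference was -0.46 for Acadsb (adjusted p = 0.227), 0.43 for Bckdhb (adjusted p = 0.325) and -0.41 for Dbt (adjusted p = 0.464).

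Over the 8 groups, Acadsb had its lowest mean in KO tibialis, the next lowest in KO gastrocnemius and the highest in KO liver. KO gastrocnemius lay 0.45 log2 units under the group next above it, WT gastrocnemius of 8 months, where the larger SD of these groups was 0.279. KO and WT liver differed by less than their spread, as did GSL30 and WT gastrocnemius of 8 months. The gene whose profile over the 8 group means was nearest that of Acadsb was Ivd by 1449001_at, with a root mean square difference of 0.136 log2 units, where the median of 12511 probe sets was 0.727. Next came Acads, a short-chain acyl-CoA dehydrogenase, at 0.19, Selenos at 0.194, 1110032A03Rik at 0.195 and Gpt2, a mitochondrial alanine transaminase, at 0.197. Each gene was ranked by its nearest probe set only. Acadsb and Ivd were both chosen from mutant differences that enter these profiles, so their likeness is given as a description.

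Of 27 other genes of the pathway, 23 had a probe set, 45 in all, and these were tested. The list was drawn up with earlier results of these data known, so its calls between mutant and WT arrays give no independent support. In KO tibialis 5 of 35 tested probe sets passed, all lower, beside 1.4% of all probe sets. The median difference of the 35 was -0.25. Oxct1, which activates the ketone body acetoacetate in muscle, fell by 1.01 (SE 0.107, adjusted p = 0.0022) and by 1.40 (SE 0.155, adjusted p = 0.00271) by 1449059_a_at and 1428140_at, the second to 3299.7 ± 741 in KO against 8678 ± 796 in WT tibialis (SD, n = 4 each). A further Oxct1 probe set, 1436750_a_at, fell by 0.81 (SE 0.166, adjusted p = 0.0498). Pcca, a subunit of propionyl-CoA carboxylase, to which isoleucine and valine carbon leads, fell by 0.70 (SE 0.105, adjusted p = 0.0129). Mmab, which helps form the cobalamin cofactor used after it, fell by 0.75 by 1435097_at (SE 0.145, adjusted p = 0.0422).

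The first 2 Oxct1 calls held with any single array left out, with adjusted p of at most 0.0152. The Pcca call did not hold without KO replicate 2 (adjusted p = 0.0633) or 3 (0.056) or without WT replicate 1 (0.0501). The Mmab call held with 1 of the 8 tibialis arrays left out, KO replicate 4, and the third Oxct1 call with 1, WT replicate 2; with any other array left out their adjusted p ran up to 0.127 and 0.157. With no filter on dim probe sets neither passed (0.106 for Mmab and 0.123 for Oxct1), and Oxct1 by 1436750_a_at also failed with quantile normalization (0.0563), a pseudocount of 1 (0.0593) and all arrays in 1 fit (0.213).

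In KO gastrocnemius 0 of 35 other pathway probe sets passed in limma, beside 0.147% of all, with a median of -0.27. Of the 35, 9 had an unadjusted p under 0.05. The one of smallest p was Aldh6a1, the last dehydrogenase of the valine path, at 2695 ± 417 in KO (n = 3) and 3851 ± 211 in WT (n = 5), a difference of -0.52 (SE 0.134, adjusted p = 0.261), or -0.70 without the 4 arrays (adjusted p = 0.199). In KO liver 0 of 32 passed in limma, beside 0.00737% of all, with 5 at an unadjusted p under 0.05. The one of smallest p was Acat1 by 1424183_at, a thiolase of isoleucine and ketone body breakdown, at -0.37 (SE 0.119, adjusted p = 0.44). In GSL30 gastrocnemius 2 of 34 passed, both lower, beside 4.31% of all probe sets. Acaa2, a mitochondrial thiolase, fell by 0.77 by 1455061_a_at (SE 0.174, adjusted p = 0.0306) and Acat1 by 0.48 by 1424182_at (SE 0.121, adjusted p = 0.0471). Without the WT arrays highest in liver transcripts (replicates 2 and 5) neither passed, with adjusted p of 0.0506 for Acaa2 and 0.131 for Acat1. The Acaa2 call also ended without GSL30 replicate 1, 2, 3 or 5 or WT replicate 1, 3 or 4, and the Acat1 call without GSL30 replicate 1, 2 or 5 or any one WT array.

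For comparison, the probe sets of the tricarboxylic acid cycle and electron transport had a median difference of 0.06 in KO tibialis, over 46, and of 0.12 in KO gastrocnemius, over 45. Among WT arrays, 28 of 36 other pathway probe sets passed between liver and tibialis, 19 higher and 9 lower in liver, beside 69.4% of all probe sets. Between gastrocnemius and tibialis 12 of 34 passed, 3 higher and 9 lower in gastrocnemius, beside 27% of all. Between 8 and 3 months 0 of 35 passed in limma, beside 6.19% of all, with 9 at an unadjusted p under 0.05.

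By RefSeq annotation of GRCm38.p6, 4 of the 9 genes lie on chromosome 7, which also holds Gys1. Bcat2 is the nearest to it, with 8 protein-coding genes between them; Bckdha, Bckdk and Acadsb are separated from it by 416, 868 and 909. Bcat2 was above WT in KO gastrocnemius and KO liver and near the WT level in KO tibialis. Acadsb was below WT in both KO muscles. Bckdk differed by -0.49 in KO tibialis and 0.11 in KO gastrocnemius, and Bckdha by -0.25 and -0.20. Any part of position on the chromosome in these values was not tested. Acadsb is read by a single probe set of the _x_at type, whose probes can also match other transcripts, and the same caution holds for the _s_at set of Hibadh. The Bcat2 set is of the _a_at type, which reads several transcripts of the same gene.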

How the data were processed

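RNA from 34 tissue samples was hybridised to Affymetrix arrays of 22690 probe sets, from about 5 µg of muscle or 10 µg of liver RNA, per the labels. The deposited values are probe set intensity on a linear scale. How probes were combined into them, and with which program, was not given in the labels. Trimmed means of 1000.34 to 1000.49 in every array show a common scaling, and array medians ran between 296.35 and 440.3. The number of arrays per group, not read depth, limits the precision.

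From the deposited intensities log2(value + 50) was taken. The arrays of the groups compared, and no others, entered each limma 3.58.1 model (lmFit and eBayes) in R 4.3.3; the R package data.table was at version 1.17.8. Control probe sets (64) and the dimmest by mean log2 value, up to the 40th percentile, were dropped, which left 13576, and p-values were adjusted over these by Benjamini-Hochberg. They measure only the spread between these samples, which may be technical. The steps were tested on simulated data.

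Of the probe sets, 20393 had 1 gene symbol, 691 several and 1606 none. The genes and all lists were chosen with earlier results of these data known. Named were all probe sets of the 9 genes, other pathway genes that passed (or the one of smallest p), Gys1, and the 5 profiles nearest Acadsb. Promoters were searched and figures drawn in Python 3.11.15 with pandas 2.3.3 and matplotlib 3.10.9.

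Alternatives were a pseudocount of 1 or 200, scaling to one median or to equal quantiles, a filter moved to the 60th percentile or dropped, a single fit of all 34 arrays, each array left out, and, for gastrocnemius, the mean of the hepatocyte transcripts as a covariate or the arrays highest in them left out. For the other pathway genes they were added after seeing the data.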

Additional observations from a re-analysis of the deposited data

Results flagged for a closer look

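Within groups of 4 or 5 arrays, 5 of 77 groups of values held an array far from the rest of its group, where chance alone flags about 1 in 20. Ivd read 1077 by 1449001_at in KO tibialis replicate 4, against 719.6 to 778 in the other KO tibialis arrays. Hibadh read 7164 by 1435967_s_at in the same array, against 6878 to 6917. Ivd read 3394 by 1418238_at in KO liver replicate 4, against 4042 to 4102 in the other KO liver arrays. Bckdha read 2670.4 in WT tibialis replicate 4, against 3233 to 3329, and Dbt read 659 in WT gastrocnemius replicate 2 of 3 months, against 920.3 to 1012.

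In 3 cases the difference between mutant and WT differed between settings by a limma contrast past the threshold. The KO difference in liver minus its mean over both muscles was 1.199 (SE 0.170) for Acadsb and 1.03 (SE 0.175) for Bckdhb, over 24 arrays. In this contrast 0.685% of all probe sets passed. The GSL30 difference minus the KO difference in gastrocnemius was 0.84 (SE 0.183) for Acadsb, over 18 arrays, with age and genotype changing together. Here 2.3% of all probe sets passed. These contrasts contain the values that chose the genes and are given as a description. Between KO gastrocnemius and KO tibialis no such contrast passed for any of the 11 probe sets, where 0.0147% of all probe sets passed.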

How the results depend on the processing

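Of 232 alternative values of the counts and medians over the 11 probe sets, 221 stayed close to the reported value and 11 moved. A count was taken as close up to a ratio of 1.5, so counts of 2 or 4 beside 3 were taken as close. In KO tibialis the median of -0.37 was -0.46 with a common median and ran between -0.51 and -0.28 with each array left out; -0.28 came without KO replicate 3 and -0.51 without KO replicate 4. In WT liver against tibialis the median of 0.46 was 0.62 with a common median and ran between 0.45 and 0.56 with each array left out, 0.56 without WT liver replicate 4. In WT gastrocnemius against tibialis the median of 0.0586 was -0.0718 with a common median. That scaling moved the median of all probe sets by -0.09 in KO tibialis. It moved it by 0.17 in WT liver and by -0.13 in WT gastrocnemius, each against tibialis. With all 34 arrays in 1 fit, counts past the threshold were 4 in KO tibialis (3 reported), 4 in KO gastrocnemius (0) and 1 in KO liver (0). That fit gave 2 in WT gastrocnemius against tibialis, against 1, and 2 between 8 and 3 months, against 0. Over all 13576 probe sets it called 291 in KO tibialis, against 190, and 306 in KO gastrocnemius, against 20. Since the mutant values chose the genes, nothing is read from the KO counts. In KO tibialis the count of 3 ran between 2 and 3 with each array left out, and was 2 with no filter on dim probe sets. There Ivd by 1449001_at was past the threshold in 8 of 15 alternatives, and Acadsb and Bckdhb in all 15. With each array left out, the count in WT gastrocnemius against tibialis ran between 1 and 2, with 2 without gastrocnemius replicate 4. In WT liver against tibialis the count of 11 was 9 with no filter and 10 with quantile normalization, a filter at the 60th percentile (which left out Bcat2) or all arrays in 1 fit, and ran between 9 and 11 with each array left out. Over all probe sets the number past the threshold ran, against 190 in KO tibialis, between 63 and 300 under the alternatives, against 20 in KO gastrocnemius between 4 and 306, against 1 in KO liver between 1 and 32, and against 585 in GSL30 gastrocnemius between 34 and 1093. Among WT arrays it ran between 1691 and 4843 against 3669 for gastrocnemius and tibialis, and between 95 and 1820 against 840 for 8 and 3 months. For WT liver and tibialis it ran between 6838 and 11682, against 9417.

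No paired analysis was made, because the labels do not say whether arrays of different tissues came from the same animals. Running numbers in the array titles recur between tissues, and their meaning is not given. All fits and contrasts treat the arrays as independent. Groups of 3 to 5 arrays limit what can be told apart, and dim probe sets, Gys1 in liver among them, carry no fold change here. The choice of genes from these data limits every mutant comparison given, and liver transcripts in the gastrocnemius arrays of 3 months limit the comparisons that use them.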
